A study of Homo sapiens with 18 samples.

Results

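Among the 23686 gene symbols of the deposited tables, 411 ended in -AS1, -AS2 or -AS3, the suffixes given to RNAs named after a gene on the opposite strand. The antisense RNAs described here are the 284 of them with 10 or more estimated counts in at least 3 of the 18 libraries: 269 ending in -AS1, 12 in -AS2 and 3 in -AS3. The level that chose them came from the same counts as every result below, so being detected is no finding. The other 127 symbols did not reach the rule. The 5 symbols just below it, with 2 libraries at 10 or more, peaked at 10 to 21 counts, and the 6 just above it, with 3 such libraries, at 15 to 26. Of the 284, 254 reached 10 counts in at least 9 libraries and 186 in all 18.

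Antisense RNAs are transcribed from the strand opposite to another gene and are spliced and polyadenylated in many cases. Some overlap the exons of their sense gene, some lie in its introns, and others start head to head with it from a shared promoter. A few are known to act on their sense gene, by recruiting chromatin regulators or by pairing with its RNA, while many are short-lived and have no known function. JIB-04 inhibits the Jumonji (JmjC) histone demethylases, enzymes that remove methyl groups from histone lysines, among them lysine 9 of histone H3, a mark of silent chromatin.

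RNA was sequenced from 2 human diffuse large B-cell lymphoma lines, OCI-Ly1 of the germinal-centre type and TMD8 of the activated B-cell type. Each line was given the vehicle (0.01% DMSO) or JIB-04 at 150 or 500 nM, and 3 libraries were made per group. OCI-Ly1 grew in IMDM and TMD8 in RPMI, so line and medium cannot be told apart, and the labels name no treatment time. The libraries were technical triplicates of ribosome-depleted RNA, so every p-value below measures only the spread between these libraries, and bulk RNA cannot tell fewer expressing cells from less RNA per cell. No strand is stated for the counting. Where an antisense RNA overlaps the exons of its sense gene, reads of the pair therefore cannot be told apart with certainty.

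OCI-Ly1 libraries summed to between 17579732 and 32651115 estimated counts and TMD8 libraries to between 9550092 and 20509500. The antisense RNAs took 0.235 to 0.301% of them. All 6 B-cell markers were present at 1 CPM (counts per library, scaled to a common total) or more in every group. Their sum went from 1277 to 1329 CPM with DMSO to 1106 to 1148 at 500 nM in OCI-Ly1. In TMD8 it went from 2747 to 2916 CPM to 2311 to 2355. The 4 germinal-centre type markers went from 638 to 665 CPM to 530 to 549 in OCI-Ly1, and from 105 to 112 to 86 to 90 in TMD8. The 4 activated type markers went from 643 to 644 CPM to 852 to 876 in OCI-Ly1, and from 4589 to 4913 to 3437 to 3458 in TMD8. Summed over its 4 genes, the T-cell marker list stood at 18.8 to 22.5 CPM with DMSO and at 8.40 to 9.42 CPM at 500 nM in OCI-Ly1. In TMD8 the same sum went the other way without overlap, from 1.65 to 2.26 CPM with DMSO to 3.22 to 3.38 CPM at 500 nM, with CD3E at 0 in all 3 groups. The 4 myeloid markers went there from 1.46 to 2.31 CPM to 3.67 to 4.09 CPM, and the 4 erythroid markers, HBB at 0, from 0.28 to 0.51 CPM to 1.45 to 1.64 CPM. The part of these markers in any result was not tested. A single small RNA gene, MIR3687, held 16.1 to 17.3% of all TPM (a level per transcript length) in TMD8 with DMSO and 19.1 to 24.3% at 500 nM, and its part in the differences between scalings was not tested. Every CPM and log2 change below is scaled by the trimmed mean of M-values (TMM) unless another scaling is named.

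By level the antisense RNAs were mostly scarce. Their median was 2.14 TPM in OCI-Ly1 and 1.15 TPM in TMD8 with DMSO, beside medians of 7.21 and 4.06 TPM for their sense genes. At 10 TPM or more there were 37 in OCI-Ly1 and 13 in TMD8 with DMSO, and 39 and 10 at 500 nM. Between the lines such TPM levels depend on the scaling. With DMSO the median log2 difference over all genes, OCI-Ly1 minus TMD8, was 0.61 on log2(TPM + 1) and -0.02 with TMM. The share of all genes at 10 TPM was not counted. Among the 177 pairs with more than 3 counts of both genes in every library, the antisense RNA exceeded its sense gene in TPM in 39 to 48 pairs, depending on the group.

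RefSeq held 282 of the 284, and named 241 of them as the tables do. It classed 271 as long noncoding RNAs, 4 as antisense RNAs, 4 as transcribed pseudogenes and 3 as protein coding. It now names 16 of them with the suffix -DT, for divergent transcript, a start beside another gene's promoter. In GENCODE 29, which places 272 beside their sense gene, 184 overlapped its exons and 63 overlapped its span without shared exon bases. Another 22 started head to head within 1000 bases, and 3 lay apart on the opposite strand. Whether the 63 lie inside an intron was not measured.

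RefSeq promoter windows on GRCh38.p14 (250 bases before a start to 50 after) were found for 211 of the antisense RNAs, and 37 of 188 pairs shared a run of at least 30 bases between the windows of both genes. The windows of 3 are printed, because TIPARP-AS1 and ZBED3-AS1 rose in both lines at 500 nM and OIP5-AS1 is among the most abundant antisense RNAs. Each runs 5′ to 3′ on the strand of the antisense RNA and is cut where an exon of a protein-coding gene begins. Capitals mark any match, on either strand, to 6 searched motifs: TGATGNAA (the core of the ATF4 composite site), TGACGTCA (the cyclic AMP response element), TTCNNGAA (heat shock factor), CACGTG (the E-box), CCAAT (NF-Y) and GCGTG (the core of the aryl hydrocarbon receptor site). No motif contains another.
TIPARP-AS1 (chr3:156675779-156675963, minus strand): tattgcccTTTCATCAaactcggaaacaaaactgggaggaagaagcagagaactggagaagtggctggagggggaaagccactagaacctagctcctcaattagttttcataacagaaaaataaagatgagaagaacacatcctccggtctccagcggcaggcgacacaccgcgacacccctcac
ZBED3-AS1 (chr5:77086465-77086731, plus strand): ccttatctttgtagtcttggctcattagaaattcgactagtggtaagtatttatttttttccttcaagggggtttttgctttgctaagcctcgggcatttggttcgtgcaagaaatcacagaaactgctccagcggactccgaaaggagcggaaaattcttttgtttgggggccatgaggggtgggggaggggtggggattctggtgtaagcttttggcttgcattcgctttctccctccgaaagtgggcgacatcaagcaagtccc
OIP5-AS1 (chr15:41283740-41284012, plus strand): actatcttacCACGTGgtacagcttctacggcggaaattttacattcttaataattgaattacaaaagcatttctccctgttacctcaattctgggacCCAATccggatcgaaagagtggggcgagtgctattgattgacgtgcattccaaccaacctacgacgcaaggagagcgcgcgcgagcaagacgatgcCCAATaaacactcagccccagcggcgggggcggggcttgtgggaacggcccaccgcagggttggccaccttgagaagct

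The TIPARP-AS1 window held 1 match, to TGATGNAA on the other strand, 242 bases before the start. None of the 6 motifs was in the printed part of the ZBED3-AS1 window. The printed part of the OIP5-AS1 window held the E-box at 240 and the NF-Y motif at 152 and 56 bases before the start. The whole OIP5-AS1 window also held 1 match to GCGTG, which the printed part does not contain. TGATGNAA was present in 1.42% of the 211 antisense windows and in 3.67% of all 27305 RefSeq promoter windows. The shares for the others were 1.90 against 1.98% for the cyclic AMP response element, 6.64 against 7.84% for the heat shock factor motif, 8.53 against 7.43% for the E-box and 30.8 against 35.7% for the NF-Y motif. The aryl hydrocarbon receptor core was in 51.2% of antisense windows and 36.3% of all, with a median GC content of 62.0% in the antisense windows and 58.3% in all. In the 230 windows of sense genes it was in 52.2%, with a median GC content of 65.8%. Among antisense RNAs called at 500 nM it was in 51.9% of the higher and 52.3% of the lower in OCI-Ly1. In TMD8 these shares were 56.7% and 60.0%, the latter of 10 windows.

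JIB-04 at 500 nM was followed by lower levels of more antisense RNAs than higher ones in OCI-Ly1, and by the opposite split in TMD8. In OCI-Ly1, 35 of the 272 tested were higher and 84 lower than with DMSO in edgeR's quasi-likelihood test with Benjamini-Hochberg adjustment over all genes (adjusted p under 0.05). Over all 15638 genes tested, 27.7% were higher and 25.9% lower. In TMD8, 81 of 248 (32.7%) were higher and 13 (5.24%) lower, against 29.9% and 30.7% of 15363 genes. The higher share there lay near that of all genes. The median log2 change of the antisense RNAs was -0.28 in OCI-Ly1, where the median over all genes was -0.00, and 0.26 in TMD8, where it was 0.04.

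How these splits stand against 0 depended on the scaling, while the gap to the median of all genes kept its sign. On log2(TPM + 1), tested with limma, TMD8 gave 31 higher and 58 lower, with a median of -0.22 over all genes and -0.05 over the antisense RNAs, and OCI-Ly1 gave 46 higher and 65 lower, with medians of 0.10 and -0.06. The median of the antisense RNAs minus that of all genes was -0.29 to -0.17 in OCI-Ly1 and 0.15 to 0.23 in TMD8 over every scaling tried. This gap is not matched on level. With TMM in TMD8 the medians of antisense RNAs and all genes were 0.24 and -0.05 at 5 CPM and over. They were 0.26 and 0.31 between 1 and 5 CPM, and 0.43 and 0.52 below 1 CPM. In OCI-Ly1 the antisense median was the lower one in every band. Over all genes, the share of calls that were higher in TMD8 was 49.3% with TMM and 18.8% on log2(TPM + 1), and in OCI-Ly1 51.6% and 71.9%. The sense genes themselves were split the other way in OCI-Ly1, with 88 of 238 higher and 52 lower, and evenly in TMD8, with 76 of 236 higher and 70 lower.

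The libraries of 500 nM and DMSO did not overlap for 44 antisense RNAs on the higher side and 101 on the lower in OCI-Ly1, together 53.3% of those tested, beside 60.7% of all genes. In TMD8 the counts were 87 and 22, together 44.0%, beside 66.4% of all genes. Leaving out each library in turn kept 22 of the 35 higher and 58 of the 84 lower calls in OCI-Ly1, and 48 of 81 and 7 of 13 in TMD8.

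**Figure D1:**
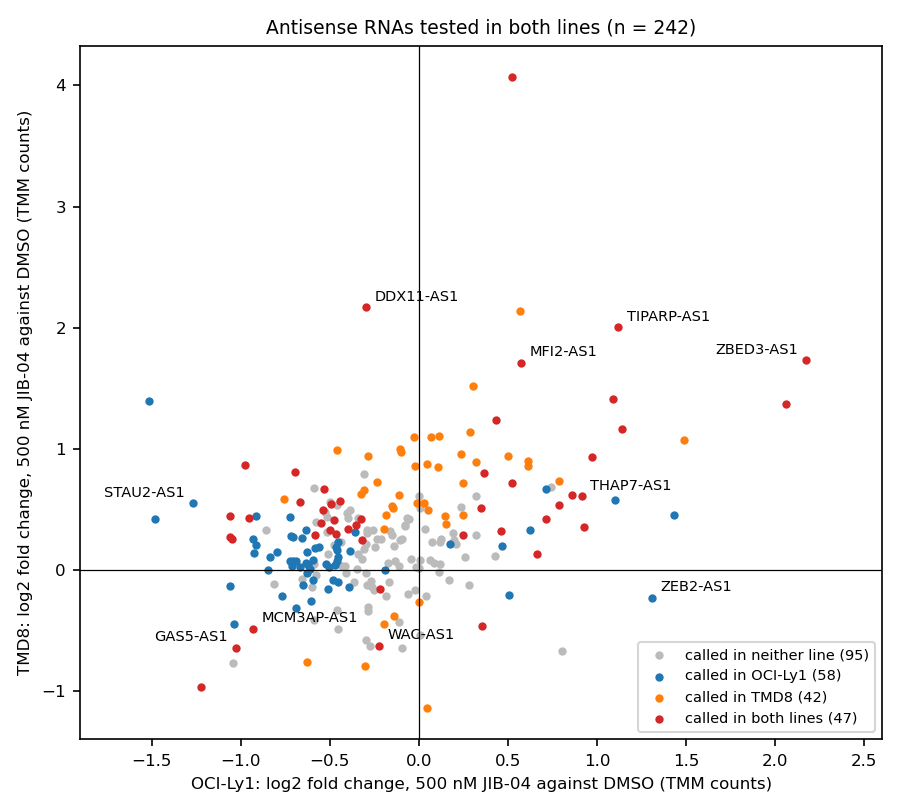
Log2 change at 500 nM JIB-04 against DMSO (TMM scaling) in OCI-Ly1 (horizontal) and TMD8 (vertical), 1 point for each of the 242 antisense RNAs tested in both lines, coloured by the line in which it was called. More points lie left of 0 than right of it and more above 0 than below it; on log2(TPM + 1) the TMD8 calls split the other way, 31 higher and 58 lower.

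At 150 nM the lines stood apart. In OCI-Ly1 no antisense RNA was called in either direction by edgeR, 24 of 272 had an unadjusted p under 0.05, and DESeq2 called 0 higher and 1 lower. The background there was small as well, at 0.748% of genes higher and 0.141% lower, and the groups did not overlap for 8 antisense RNAs on the higher side and 32 on the lower, 14.7% beside 14% of all genes. In TMD8, 41 of 248 were higher and 9 lower at 150 nM, against 19.2% and 25% of all genes, and on log2(TPM + 1) 22 were higher and 18 lower. The TMD8 groups did not overlap for 58 and 16, together 29.8%, beside 51.4% of all genes. Without the third 150 nM library of TMD8 the higher calls were 26 in place of 41, and the 9 lower calls became 5, 3 or 4 without library 2 of DMSO, library 2 of 150 nM or library 3 of 150 nM.

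Between 150 and 500 nM, smaller shares of the antisense RNAs than of all genes were called in both lines. The groups did not overlap for 42.6% of antisense RNAs in OCI-Ly1 and 19.4% in TMD8, beside 55.6% and 44.8% of all genes. In OCI-Ly1, 32 antisense RNAs (11.8%) were higher and 50 (18.4%) lower at 500 than at 150 nM, against 25.1% and 21.1% of all genes. That split turned round on log2(TPM + 1), to 44 higher and 34 lower, and it was 21 and 106 on the centred form. In TMD8, 17 (6.85%) were higher and 2 (0.806%) lower, against 13.7% and 15%. On log2(TPM + 1) the split was again the reverse, at 3 higher and 15 lower. Centred on the median of all genes it was 22 and 6. The 19 TMD8 calls became 10 or 11 without library 1 or 2 of 150 nM, or library 1 or 3 of 500 nM.

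The difference between the lines was tested directly, by subtracting the TMD8 change from the OCI-Ly1 change. At 500 nM, 86 of 278 antisense RNAs had a lower change in OCI-Ly1 and 8 a higher one, against 18.1% and 28.2% of all genes. The median difference was -0.45 for the antisense RNAs and 0.05 for all genes. On log2(TPM + 1) the counts were 31 lower and 44 higher, with medians of -0.01 and 0.38. The gap of -0.52 to -0.39 between the medians kept its sign on every scaling. With TMM it lay at 5 CPM and over, where the medians were -0.50 and 0.15. There 51 of 98 were lower, against 18.1% of genes in that band. Between 1 and 5 CPM the medians were -0.44 and -0.41, with 27 of 112 lower against 23.5%. Below 1 CPM they were -0.36 and -0.43, with 8 of 68 lower against 9.55%. At 150 nM, 21 had a lower change in OCI-Ly1 and 2 a higher one, against 8.33% and 15% of all genes, and on log2(TPM + 1) there were 11 and 5.

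The TMD8 split against the background lay among the more abundant antisense RNAs, since low genes as a whole also leaned upward there. Among genes with a mean of 5 CPM or more, 43 of 96 antisense RNAs were higher and 8 lower in TMD8 at 500 nM, against 28.8% and 39.8% of all genes in that band. Between 1 and 5 CPM the counts were 31 and 3 of 122, against 32.5% and 6.37%, both below the background. Below 1 CPM they were 7 and 2 of 30, against 34.7% and 4.48%. In OCI-Ly1 the highest band held 12 higher and 45 lower of 88, against 30.6% and 29.5%. The middle band held 14 and 28 of 112, against 22.3% and 23.3%, and the lowest 9 and 11 of 72, against 19.5% and 8.99%.

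**Figure D2:**
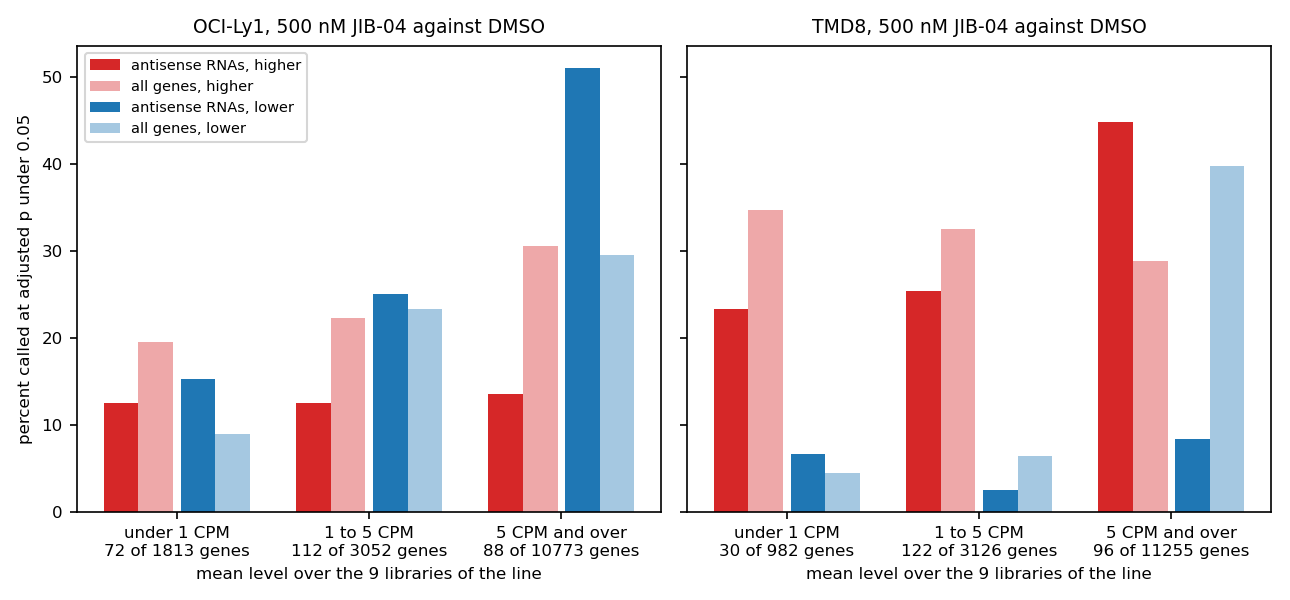
Percent of antisense RNAs and of all genes called higher or lower at 500 nM against DMSO (TMM scaling) in bands of mean CPM, with OCI-Ly1 and TMD8 in separate panels. At 5 CPM and over, lower calls exceed those of all genes in OCI-Ly1 (45 of 88 against 29.5%) and higher calls do so in TMD8 (43 of 96 against 28.8%), where log2(TPM + 1) gives more lower than higher calls over all bands.

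Of the 242 antisense RNAs tested in both lines, 20 were higher in both at 500 nM, 5 lower in both, 21 lower in OCI-Ly1 and higher in TMD8, and 1 higher in OCI-Ly1 and lower in TMD8. The same counts over 14483 genes were 2040, 1988, 506 and 726.

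TIPARP-AS1 and ZBED3-AS1 were the antisense RNAs with the clearest rises in both lines. TIPARP-AS1 lies beside TIPARP, a mono-ADP-ribosyltransferase induced by the aryl hydrocarbon receptor, and 37 of its 1254 exon bases overlap TIPARP exons. In OCI-Ly1 its libraries held 1.98, 2.52 and 1.86 CPM with DMSO, then 1.98, 2.48 and 2.07 at 150 nM and lastly 4.53, 4.96 and 4.22 at 500 nM. TMD8 libraries held 2.22, 2.64 and 3.42 CPM with DMSO, then 6.39, 7.74 and 9.87 at 150 nM and lastly 11.1, 10.4 and 12.5 at 500 nM. The 150 nM libraries overlapped DMSO in OCI-Ly1 and lay wholly above it in TMD8, and the 500 nM libraries lay above DMSO in both. The log2 change at 500 nM was 1.12 (SE 0.18, edgeR adjusted p 5.67e-05) in OCI-Ly1 and 2.01 (SE 0.18, edgeR adjusted p 2.5e-08) in TMD8. At 150 nM it was 0.06 and 1.54, a difference between the lines of -1.47 (SE 0.27, edgeR adjusted p 0.000298). TIPARP itself rose less, by a log2 change of 0.21 in OCI-Ly1 and 0.45 in TMD8 at 500 nM.

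ZBED3-AS1 overlaps ZBED3, a zinc finger gene, over 213 of 17200 exon bases. OCI-Ly1 libraries held 2.54, 1.35 and 2.62 CPM with DMSO, then 2.99, 3.18 and 3.35 at 150 nM and lastly 10.4, 10.5 and 9.39 at 500 nM. In TMD8 the values were 0.508, 0.449 and 0.604 CPM, then 1.16, 0.829 and 1.84, then 1.71, 1.50 and 2.15. Every treated library lay above every DMSO library of its line. The log2 change at 500 nM was 2.18 (SE 0.18, edgeR adjusted p 1.41e-08) in OCI-Ly1 and 1.73 (SE 0.34, edgeR adjusted p 0.000235) in TMD8. ZBED3 rose with it, by 2.34 and 1.10. FGF14-AS2, which overlaps the growth factor gene FGF14 without shared exon bases, also rose in both, by 0.97 and 0.93. FGF14 had at most 6 counts in any library.

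GAS5-AS1, MCM3AP-AS1 and WAC-AS1 had the largest falls shared by both lines. GAS5 is a host gene of small nucleolar RNAs that is known to restrain growth, and GAS5-AS1 overlaps it over 42 of 694 exon bases. GAS5-AS1 was at 6.30, 5.57 and 7.83 CPM with DMSO and at 3.19, 3.02 and 3.49 at 500 nM in OCI-Ly1. In TMD8 the libraries held 5.65, 4.04 and 5.38 CPM with DMSO, then 3.77, 3.80 and 3.27 at 150 nM and lastly 2.57, 3.29 and 3.99 at 500 nM. All 500 nM libraries lay below all DMSO libraries of their line. The log2 change was -1.03 (SE 0.16, edgeR adjusted p 2.84e-05) in OCI-Ly1 and -0.64 (SE 0.19, edgeR adjusted p 0.00736) in TMD8, where it became -0.48 (edgeR adjusted p 0.0649) without the first 500 nM library. The TMD8 change of -0.48 at 150 nM lost its call without any 1 of 5 libraries, with edgeR adjusted p from 0.0513 to 0.173.

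MCM3AP-AS1, opposite a gene for mRNA export and for acetylation of a replication factor, changed by -0.93 (SE 0.15) in OCI-Ly1 and -0.48 (SE 0.11) in TMD8, and MCM3AP was not called in either line. WAC-AS1, opposite WAC, an adaptor of histone H2B ubiquitination, was far more abundant, at 209, 227 and 221 CPM with DMSO and 190, 186 and 187 at 500 nM in OCI-Ly1. In TMD8 it went from 180, 164 and 161 CPM to 147, 132 and 124 at 150 nM and 109, 108 and 109 at 500 nM. The 3 TMD8 groups did not overlap, and the log2 change at 500 nM was -0.62 (SE 0.06, edgeR adjusted p 7.35e-08). The OCI-Ly1 change of -0.23 was -0.08 and not called on log2(TPM + 1). The difference between the lines was 0.43 (SE 0.08) at 500 nM and 0.33 at 150 nM.

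**Figure D3:**
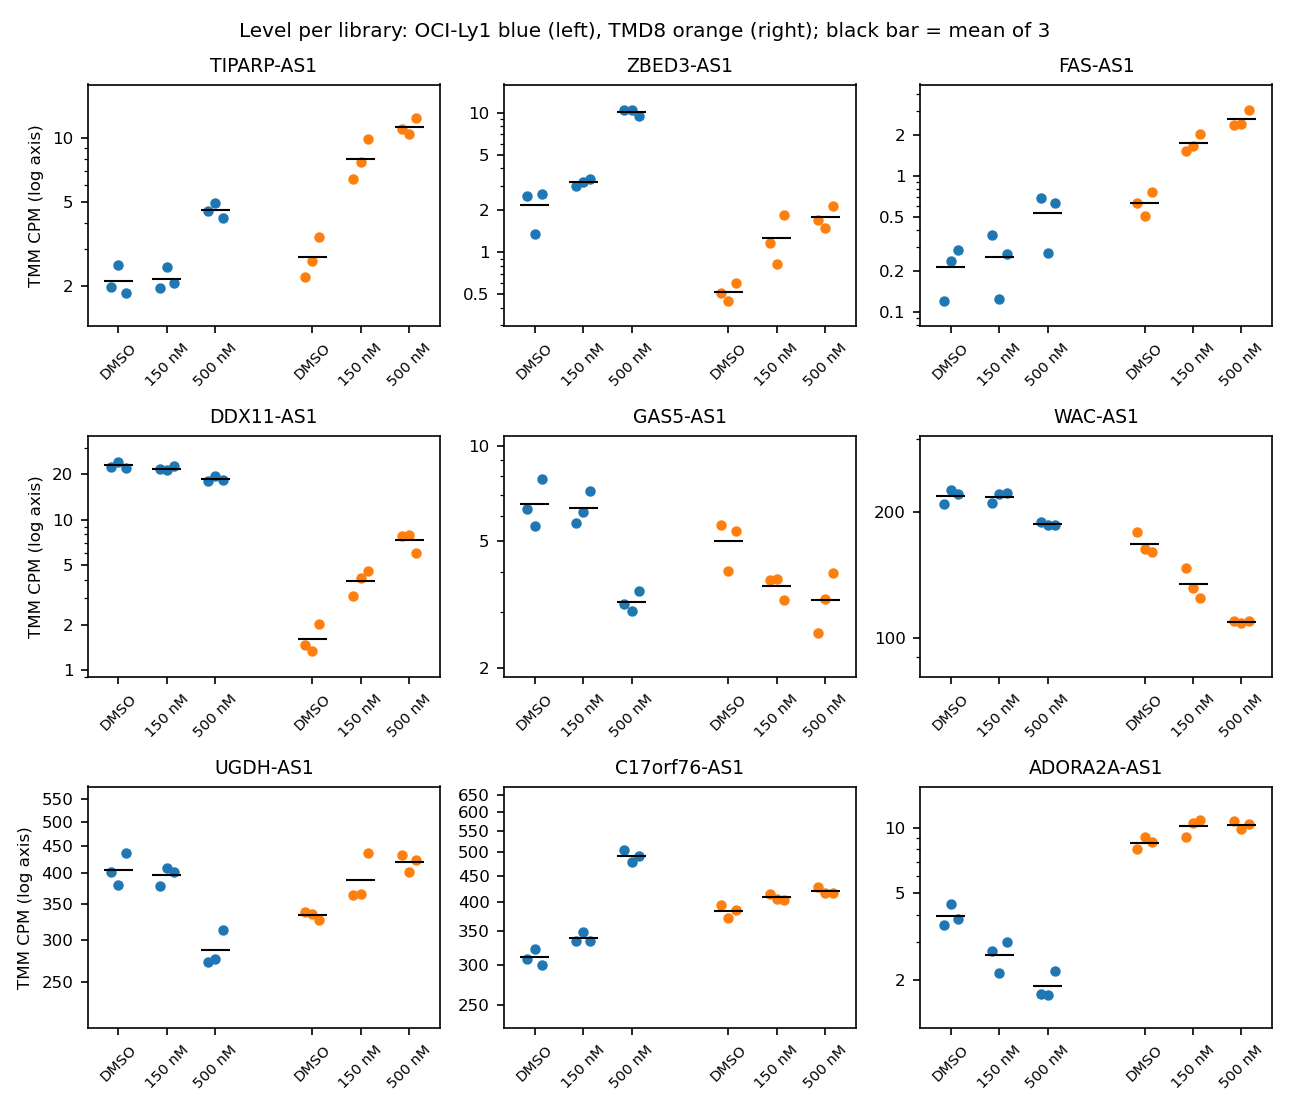
Level in CPM (TMM scaling, logarithmic axis) of 9 antisense RNAs in each of the 18 libraries by line and dose, 1 point per library. The 500 nM points of TIPARP-AS1, ZBED3-AS1 and GAS5-AS1 do not overlap the DMSO points in either line; for UGDH-AS1 and C17orf76-AS1 the TMD8 rise turns into a fall of 0.04 and 0.30 on log2(TPM + 1).

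In OCI-Ly1 the other large rises at 500 nM were of low antisense RNAs. SAMD12-AS1, which overlaps SAMD12 without shared exon bases, went from 2.70, 2.52 and 2.50 CPM with DMSO to 7.03, 5.77 and 6.78. Its log2 change was 1.34 (SE 0.17, edgeR adjusted p 4.2e-06). It had no count in any TMD8 library, and SAMD12 rose by 0.87 in OCI-Ly1. USP30-AS1, opposite a mitochondrial deubiquitinase gene, changed by 1.43 (SE 0.41), with 4 to 13 counts per DMSO library. ATP6V0E2-AS1, opposite a proton pump subunit gene, changed by 1.19 (SE 0.28). Their sense genes changed less, by 0.29 for USP30 and 0.25 for ATP6V0E2.

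Large OCI-Ly1 falls among the better counted antisense RNAs included those of GPC6-AS2, STAU2-AS1 and TMEM72-AS1. Each overlaps its sense gene without shared exon bases. GPC6-AS2, in the glypican gene GPC6, went from 51, 20 and 68 counts with DMSO to 10, 8 and 24 at 500 nM, a log2 change of -2.10 (SE 0.43, edgeR adjusted p 0.000545), and GPC6 fell by 0.66. Neither had a count in TMD8. STAU2-AS1, in the gene of the RNA-binding protein Staufen 2, changed by -1.27 (SE 0.30), with STAU2 at 0.04 and not called. TMEM72-AS1 changed by -1.06 (SE 0.31), and TMEM72 had 1 count in all 18 libraries together.

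ADORA2A-AS1, opposite an adenosine receptor gene, was at 3.57, 4.46 and 3.83 CPM with DMSO in OCI-Ly1, then 2.70, 2.15 and 2.98 at 150 nM and lastly 1.73, 1.70 and 2.21 at 500 nM. Both treated groups lay below DMSO there, and the log2 change at 500 nM was -1.06. In TMD8 it changed by 0.27, which turned negative on log2(TPM + 1). The difference between the lines was -1.30.

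DDX11-AS1 had the largest rise of the named antisense RNAs in TMD8. Its promoter window shares a run of at least 30 bases with that of DDX11, a DNA helicase gene of sister chromatid cohesion, and 3 of its 2581 exon bases overlap DDX11 exons. In TMD8 its libraries held 1.46, 1.35 and 2.01 CPM with DMSO, then 3.12, 4.07 and 4.56 at 150 nM and lastly 7.84, 7.93 and 6.04 at 500 nM, with no overlap between the 3 groups. OCI-Ly1 held it at 22.5, 24.1 and 22.2 CPM with DMSO and 17.9, 19.6 and 18.4 at 500 nM. The log2 change at 500 nM was 2.17 (SE 0.20, edgeR adjusted p 4.54e-08) in TMD8 and -0.30 in OCI-Ly1, where it was -0.15 and not called on log2(TPM + 1). The difference between the lines was -2.44 (SE 0.20, edgeR adjusted p 1.79e-10). DDX11 was not called in TMD8, at 0.06.

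FAS-AS1 rose in TMD8 together with FAS, the death receptor gene. Its TMD8 counts were 10, 9 and 15 with DMSO, then 21, 24 and 41 at 150 nM and lastly 36, 32 and 30 at 500 nM. The log2 changes were 1.46 (SE 0.27) and 2.01 (SE 0.27, edgeR adjusted p 3.34e-06), and those of FAS were 1.73 and 2.20. In OCI-Ly1 FAS-AS1 was too low to be tested, at 3 to 23 counts, while FAS changed by 2.76 at 500 nM. MFI2-AS1, opposite the melanotransferrin gene, changed in TMD8 by 1.41 at 150 nM and 1.71 at 500 nM, and MFI2 by 0.99 and 1.20.

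Falls in TMD8 were few and small. BOK-AS1, opposite the BCL2 family gene BOK, was at 17.8, 15.4 and 15.7 CPM with DMSO, then 13.2, 11.5 and 10.7 at 150 nM and lastly 9.82, 9.28 and 10.6 at 500 nM. Its 3 groups did not overlap, and the log2 change at 500 nM was -0.72 (SE 0.11, edgeR adjusted p 1.09e-05). In OCI-Ly1 it had at most 5 counts. SNRK-AS1 changed by -0.76 (SE 0.24) while SNRK, a kinase gene, changed by 0.27. FGF13-AS1 changed by -0.96 with 5 to 12 counts at 500 nM, and its call was lost without library 1 (edgeR adjusted p 0.0668) or 3 (0.0518) of 500 nM. UBOX5-AS1 changed by -0.82 at 150 nM and -0.79 at 500 nM, and both calls were lost without any 1 of 5 libraries, with edgeR adjusted p from 0.0652 to 0.196. KIAA1984-AS1 changed by -0.48 at 150 nM in TMD8, which was -0.27 (edgeR adjusted p 0.186) without the third DMSO library.

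The largest differences between the lines at 500 nM in the direction of OCI-Ly1 were of ZEB2-AS1, C1QTNF9B-AS1 and KIAA1984-AS1. ZEB2-AS1, opposite the transcription factor gene ZEB2, had 6, 8 and 7 counts with DMSO and 32, 15 and 25 at 500 nM in OCI-Ly1. TMD8 held 40, 45 and 64 with DMSO and 30, 31 and 29 at 500 nM. The difference in log2 change was 1.56 (SE 0.46, edgeR adjusted p 0.00739). The OCI-Ly1 change of 1.31 lost its call without library 1 or 3 of DMSO or library 1 of 500 nM, with edgeR adjusted p from 0.0684 to 0.0885. ZEB2 rose by 1.27 in OCI-Ly1, with a difference of 1.22 between the lines. C1QTNF9B-AS1 differed by 1.49, although its change was called in neither line, and KIAA1984-AS1 by 0.84.

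In the direction of TMD8, AQP4-AS1 and SLC26A4-AS1 differed by -1.82 and -1.86 besides DDX11-AS1. AQP4-AS1 was at 0.762, 0.897 and 1.51 CPM with DMSO and 1.98, 1.57 and 2.46 at 500 nM in TMD8, and at 1.19, 0.880 and 1.13 and then 0.566, 0.542 and 0.527 in OCI-Ly1. Its groups did not overlap in either line, and its calls within each line were lost without any 1 of 3 libraries, with edgeR adjusted p from 0.0501 to 0.0754. AQP4, a water channel gene, had at most 1 count in any library. The difference of SLC26A4-AS1 was lost without any 1 of 5 libraries, with edgeR adjusted p from 0.0567 to 0.194.

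With DMSO alone, 80 of 278 antisense RNAs were higher in OCI-Ly1 than in TMD8 and 70 lower, against 37.8% and 39% of all genes. This split depended on the scaling: it was 206 higher and 17 lower on log2(TPM + 1), 67 and 130 on its centred form, and 100 and 53 with library size alone. The median over all genes was -0.02 with TMM and 0.61 on log2(TPM + 1), and that of the antisense RNAs was 0.05 and 0.50. The 2 groups did not overlap for 56.1% of the antisense RNAs and 76.4% of all genes. DDX11-AS1 was higher in OCI-Ly1 by a log2 difference of 3.69 (SE 0.14), TTC28-AS1 by 2.52 (SE 0.12) and ZBED3-AS1 by 1.96 (SE 0.30). MLK7-AS1 was lower by -4.24 (SE 0.17), ZEB2-AS1 by -3.23 (SE 0.34) and IL21R-AS1 by -2.91 (SE 0.19).

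Some of these followed their sense gene across the lines and others did not. IL21R-AS1 was at 2.02, 2.23 and 1.78 CPM in OCI-Ly1 but 9.90, 14.9 and 16.5 in TMD8. IL21R, an interleukin receptor gene, differed in the same direction by -5.67. TTC28-AS1 was at 20.9, 20.3 and 22.2 CPM in OCI-Ly1 and 4.32, 2.92 and 3.02 in TMD8, while TTC28 differed in the opposite direction by -2.36. Neither antisense RNA was called with JIB-04 in either line. Over 249 pairs the line differences of antisense and sense gene had r = 0.52 and rho = 0.50, as a description of pairs that share their libraries and, where exons overlap, possibly reads. Of the 284, 27 reached 10 counts in the libraries of 1 line only, 23 in OCI-Ly1 and 4 in TMD8. Most OCI-Ly1 libraries were deeper than those of TMD8, and the share over all genes was not counted. These counts are therefore no result about the antisense RNAs.

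Antisense and sense genes changed together in some pairs and apart in others. The pair counts contain the splits of the antisense RNAs alone, 35 higher and 84 lower in OCI-Ly1 and 81 and 13 in TMD8. Whether the lines differ in pairing beyond these splits was not tested. Of 231 pairs tested in OCI-Ly1 at 500 nM, both genes were higher in 16, both lower in 25, the antisense RNA lower and the sense gene higher in 19, and the reverse in 3. Of 211 pairs in TMD8, the counts were 31, 5, 1 and 15. On log2(TPM + 1) they were 26, 13, 16 and 3 in OCI-Ly1, while TMD8 gave 8, 38, 3 and 10. The correlation of the paired log2 changes was r = 0.26 and rho = 0.26 in OCI-Ly1 and r = 0.45 and rho = 0.33 in TMD8, again a description across pairs that share their libraries.

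**Figure D4:**
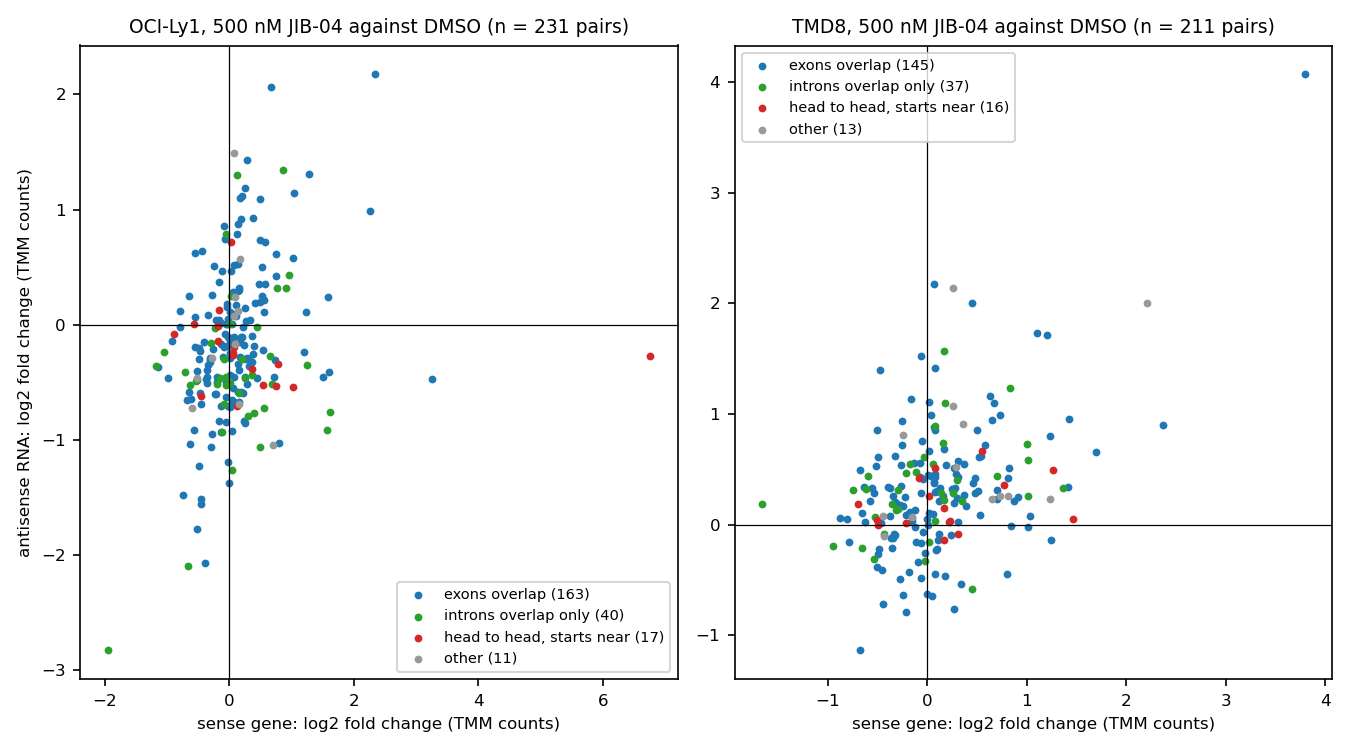
Log2 change at 500 nM against DMSO (TMM scaling) of each antisense RNA (vertical) against that of its sense gene (horizontal), coloured by the layout of the pair, for 231 pairs in OCI-Ly1 and 211 in TMD8. In OCI-Ly1, 19 pairs were called with the antisense RNA lower and the sense gene higher; in TMD8, 15 were called the other way round, and 10 on log2(TPM + 1).

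By layout, pairs with overlapping exons had r = 0.38 and rho = 0.38 in OCI-Ly1 over 163 pairs and r = 0.48 and rho = 0.30 in TMD8 over 145. The 17 head-to-head pairs of OCI-Ly1 had r = -0.14 and rho = -0.57, and the 16 of TMD8 had r = 0.28 and rho = 0.21. The counts by layout at 500 nM stand beside 27.7% of all genes higher and 25.9% lower in OCI-Ly1, and 29.9% and 30.7% in TMD8. Of the antisense RNAs that overlap the sense gene without shared exon bases, 5 were higher and 23 lower of 60 in OCI-Ly1. Their median log2 change was -0.46. Those that overlap exons had 28 higher and 49 lower of 178, with a median of -0.18, and the head-to-head ones 2 and 7 of 21, with a median of -0.25. In TMD8 the counts were 14 and 0 of the 52 that overlap without shared exon bases. They were 55 and 13 of 161 over exons, and 6 and 0 of 20 head to head. On log2(TPM + 1) they were 6 and 9 for overlap without shared exon bases and 21 and 45 over exons. The higher counts in TMD8 lie near the share of all genes in each layout. The 16 now named -DT had 0 higher and 7 lower of 15 tested in OCI-Ly1 and 2 higher and 0 lower of 15 in TMD8.

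Opposed pairs in OCI-Ly1 were led by FRMD6-AS1, GAS5-AS1, FOXD2-AS1 and CDKN2B-AS1. FRMD6-AS1 overlaps FRMD6, a gene of the Hippo growth pathway, without shared exon bases. It was at 2.93, 4.40 and 3.95 CPM with DMSO and 2.15, 1.39 and 2.34 at 500 nM. FRMD6 had 15, 5 and 15 counts and then 48, 47 and 42. The log2 changes were -0.92 (SE 0.22) and 1.57 (SE 0.34). The mean log2 ratio of antisense to sense TPM went from 4.01 to 1.47, so that the antisense RNA stayed the more abundant of the pair.

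GAS5-AS1 fell in OCI-Ly1 while GAS5 went from 137, 132 and 134 CPM to 250, 222 and 229, a log2 change of 0.80 (SE 0.06, edgeR adjusted p 2.04e-09). Their log2 TPM ratio went from -4.55 to -6.35. In TMD8 GAS5 was not called, at 0.04, and the ratio went from -4.90 to -5.56. FOXD2-AS1, which lies apart from the forkhead factor gene FOXD2, changed by -1.05 (SE 0.26) while FOXD2 changed by 0.70 (SE 0.17). Its log2 TPM ratio crossed 0, from 0.47 with DMSO and 0.39 at 150 nM to -1.32 at 500 nM. CDKN2B-AS1 changed by -0.35, a call lost on log2(TPM + 1), while CDKN2B, a cell cycle inhibitor gene, changed by 1.24. WAC-AS1 gave a similar crossing, with a log2 TPM ratio of 0.62, 0.46 and -0.15 across the OCI-Ly1 doses, as WAC rose by 0.55.

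In TMD8 the opposed pairs ran the other way. SLC25A5-AS1, opposite the gene of a mitochondrial ADP/ATP carrier, was at 1.78, 2.97 and 3.97 CPM with DMSO and 6.20, 4.86 and 4.91 at 500 nM. SLC25A5 went from 438, 406 and 403 CPM to 296, 296 and 284. The log2 changes were 0.86 (SE 0.22) and -0.51 (SE 0.05), and the log2 TPM ratio went from -8.51 to -7.07, with the sense gene more abundant throughout.

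DICER1-AS1 shares such a run with DICER1, the gene of the ribonuclease that makes microRNAs. It was at 0.635, 0.897 and 1.11 CPM with DMSO, then 1.52, 1.73 and 1.59 at 150 nM and lastly 1.98, 1.35 and 1.84 at 500 nM in TMD8, all treated libraries above all DMSO libraries. Its log2 change at 500 nM was 0.94 (SE 0.28) and that of DICER1 -0.25 (SE 0.05). THAP7-AS1 changed by 0.61 (SE 0.18) and THAP7, a gene of a chromatin-bound repressor, by -0.50, but the rise of THAP7-AS1 was 0.14 and not called on log2(TPM + 1). In OCI-Ly1 THAP7-AS1 rose by 0.91 and THAP7 by 0.19. GATM-AS1 changed by 0.81 in TMD8, which was 0.51 (edgeR adjusted p 0.1) without the second DMSO library, and was not called on either TPM scale.

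**Figure D5:**
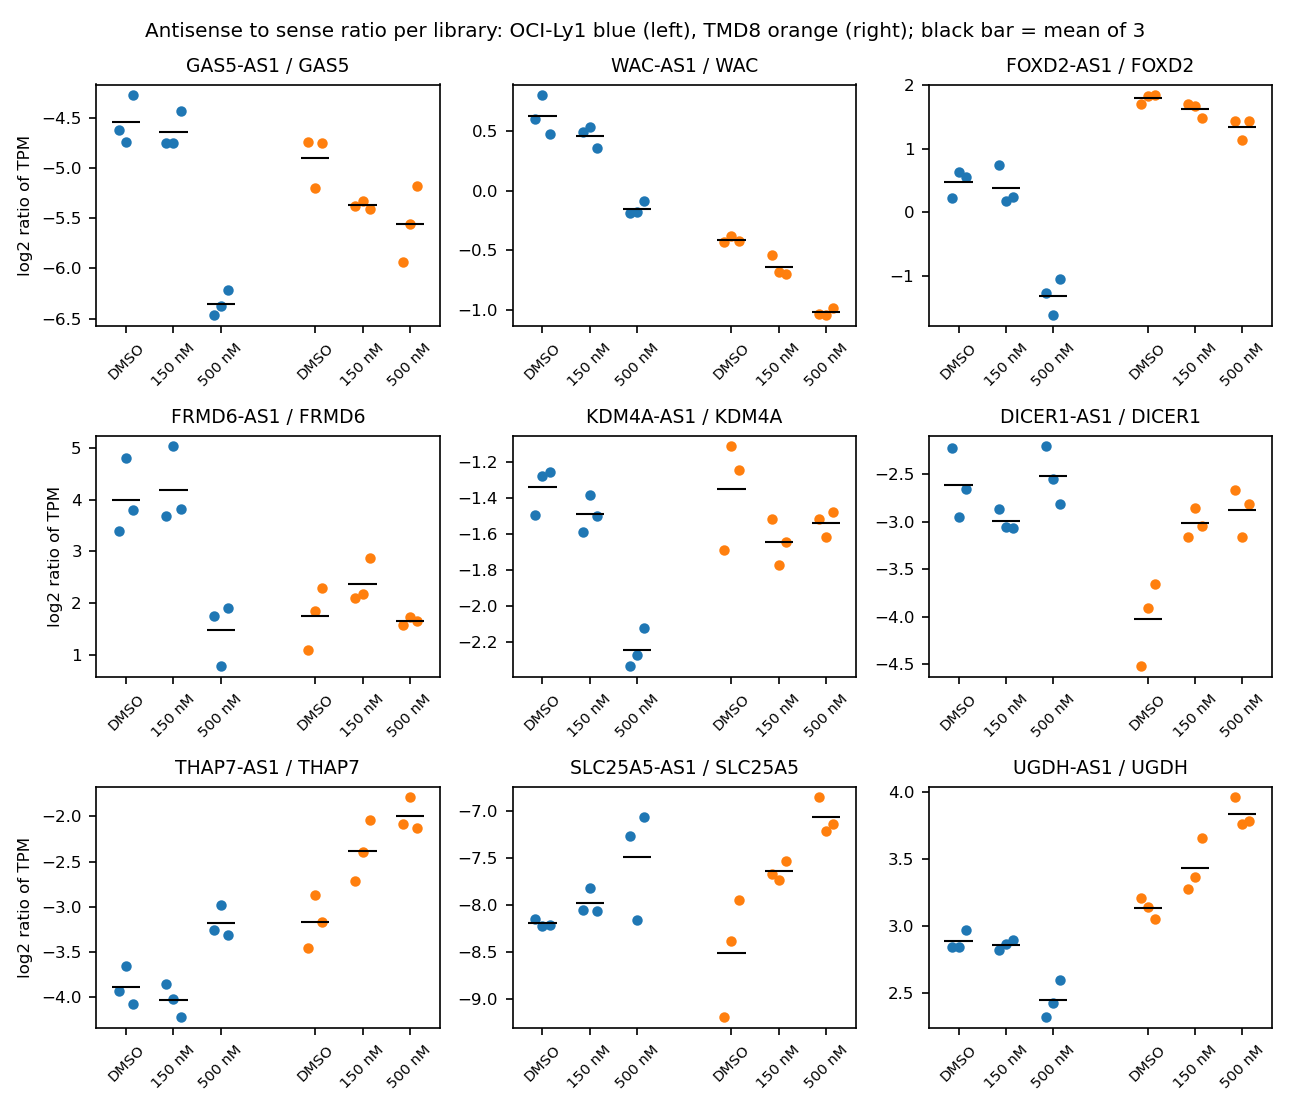
Log2 ratio of antisense to sense TPM in each of the 18 libraries for 9 pairs, by line and dose, with 0 marking equal TPM. In OCI-Ly1 the ratios of FOXD2-AS1 and WAC-AS1 pass from above 0 with DMSO to below 0 at 500 nM, while that of SLC25A5-AS1 stays below 0 in all 18 libraries.

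The most abundant antisense RNAs gave the deepest counts. C17orf76-AS1, now named SNHG29, a host gene of small nucleolar RNAs, led in every group at 305 to 858 TPM. In OCI-Ly1 it was at 308, 323 and 300 CPM with DMSO and 505, 478 and 492 at 500 nM, a log2 change of 0.66 (SE 0.05, edgeR adjusted p 1.85e-09). In TMD8 the change was 0.13, a call lost without library 2 of DMSO (edgeR adjusted p 0.0873) or library 1 of 500 nM (0.0792), and -0.30 on log2(TPM + 1). The difference between the lines was 0.56 (SE 0.07).

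UGDH-AS1, opposite the gene of an enzyme that makes UDP-glucuronate, exceeded its sense gene in TPM in every group, with log2 ratios of 2.45 to 3.84. It went from 402, 381 and 436 CPM to 272, 276 and 313 at 500 nM in OCI-Ly1, a log2 change of -0.50 (SE 0.06, edgeR adjusted p 2.28e-06), while UGDH was not called. In TMD8 it went from 339, 335 and 327 CPM to 434, 403 and 423, a change of 0.33 (SE 0.06) that was -0.04 on log2(TPM + 1), while UGDH fell by 0.38. OIP5-AS1, also known as Cyrano, changed by -0.22 in OCI-Ly1 and -0.16 in TMD8. The OCI-Ly1 call was lost on log2(TPM + 1), and the TMD8 call without library 2 of DMSO (edgeR adjusted p 0.05) or library 1 of 500 nM (0.087).

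IQCH-AS1 and PCNA-AS1 were uneven between libraries of 1 group. IQCH-AS1 was at 16.3, 33.5 and 15.1 CPM with DMSO in OCI-Ly1, so that its change of -0.31 at 500 nM was not called and became -0.52 (edgeR adjusted p 0.027) without the third DMSO library. PCNA-AS1, opposite the replication clamp gene PCNA, had 219, 0 and 0 counts with DMSO, 0 in each 150 nM library, and 237, 114 and 435 at 500 nM in OCI-Ly1. PCNA itself stayed between 506 and 621 CPM there. In TMD8 PCNA-AS1 had 258 to 687 counts in every library and a log2 change of 1.07 (SE 0.17) at 500 nM.

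For 3 antisense RNAs the sense gene encodes a JmjC demethylase, the class of enzyme that JIB-04 inhibits, and none has a sense gene among the H3K9 methyltransferases searched. KDM4A-AS1 was at 9.44, 11.1 and 10.6 CPM with DMSO and 7.45, 7.32 and 7.77 at 500 nM in OCI-Ly1, with no overlap. Its log2 change was -0.46 (SE 0.11, edgeR adjusted p 0.00215), while KDM4A rose by 0.44. In TMD8 KDM4A-AS1 was not called, at 0.17, while KDM4A rose by 0.38. JMJD1C-AS1 changed by 0.94 in TMD8, a call lost without any 1 of 4 libraries (edgeR adjusted p 0.0583 to 0.0893), and JMJD1C rose in both lines, by 0.54 and 0.65. KDM5B-AS1, now named PCAT6, had at most 4 counts in OCI-Ly1. In TMD8 it changed by 0.91, a call lost without library 3 of DMSO (edgeR adjusted p 0.126), or without library 1 (0.0549) or 3 (0.0814) of 500 nM.

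The antisense RNAs were also grouped by the role of the sense gene. Of all antisense RNAs tested at 500 nM, 12.9% were higher and 30.9% lower in OCI-Ly1 (27.7% and 25.9% of all genes), and 32.7% and 5.24% in TMD8 (29.9% and 30.7% of all genes). No group was tested against the rest. The antisense RNAs of RNA-processing genes had 3 higher and 11 lower of 22 in OCI-Ly1 at 500 nM and 7 higher and 0 lower of 20 in TMD8. The sense genes of that group had 4 higher and 11 lower in OCI-Ly1, while TMD8 gave 2 and 14. Antisense RNAs of chromatin and transcription factor genes had 8 higher and 11 lower of 44 in OCI-Ly1, where 22 of 41 sense genes were higher and 3 lower. In TMD8 they had 14 higher and 0 lower of 40, with 16 of 38 sense genes higher and 8 lower. Those of metabolism and transport genes had 3 higher and 11 lower of 30 in OCI-Ly1, and 10 higher and 1 lower of 24 in TMD8. On log2(TPM + 1) the TMD8 counts of these 3 groups were 2 and 4, 3 and 9, and 3 and 4. Cell division genes gave 1 higher and 5 lower of 13 in OCI-Ly1 and 5 and 2 of 13 in TMD8, and immune genes 2 and 2 of 9, and 3 and 0 of 9. Counts such as 7 of 20 higher in TMD8 for RNA-processing genes and 11 of 44 lower in OCI-Ly1 for chromatin genes lie near the shares of all genes.

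The examples that follow were chosen after their values were seen. ZNF674-AS1, head to head with a zinc finger gene, went from 10.9, 12.1 and 11.1 CPM to 7.84, 7.78 and 7.90 in OCI-Ly1 and from 4.06, 5.33 and 6.44 to 8.70, 9.05 and 7.47 in TMD8. Its changes were -0.53 and 0.67, the second not called on log2(TPM + 1), while ZNF674 rose in both, by 0.74 and 0.55. CIRBP-AS1, opposite the gene of a cold-inducible RNA-binding protein, rose in TMD8 from 9.78, 8.75 and 8.65 CPM to 16.2, 17.1 and 15.5, a change of 0.85 (SE 0.11), while CIRBP was not called, at 0.08. TOB1-AS1, opposite an antiproliferative gene, rose in TMD8 by 1.10 (SE 0.18) and TOB1 by 0.67, and neither was called in OCI-Ly1.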

How the data were processed

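RNA was measured in 18 bulk libraries, 3 technical replicates for each of 6 groups. Per the submitters' processing notes the authors used kallisto 0.46.0, R 4.3.1, DESeq2 1.40.2 and genome build hg19, which was not used here for coordinates. The deposited estimated counts were rounded to whole numbers for the tests. The deposited TPM values served for levels between genes, ratios (0.01 TPM added) and alternatives.

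The main test was edgeR 4.0.16 (R 4.3.3) with quasi-likelihood fits, TMM normalisation and edgeR's low-count filter, over the 9 libraries of a line, or all 18 for comparisons between the lines. Benjamini-Hochberg adjustment covered all genes tested. SE was taken as the size of the log2 change over the root of its F statistic. Alternatives were DESeq2 1.42.0, limma 3.58.1 on log2(TPM + 1), also centred on the median of all genes, and on log2(TPM + 0.1), library size alone, no filter, unrounded counts, the replicate number as a block and each library left out. The fits were tested on simulated data with 200 changed genes, equally up and down, which cannot test the scaling.

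The antisense RNAs, gene lists and motifs were chosen with earlier results of these data known. Those named had the 5 largest changes each way at 500 nM and 3 at 150 nM per line (adjusted p under 0.05, at least 1 CPM in the higher group, over 3 counts in every library, no overlap), the 3 largest shared by both lines, different between lines, or different with DMSO, the 4 most opposed pairs per line, the 5 highest in TPM, or a JmjC or H3K9 methyltransferase sense gene. Some antisense RNAs are not reported here by name. Fold changes against a group with at most 3 counts in every library are not given. Depth limits precision through counting error, and no interval here covers the spread between cultures. Sense genes were matched by symbol. For 2 of the 284 the sense gene stood only under an older or newer symbol, and these 2 are not in the pair results. Layout came from GENCODE 29, and promoter windows came from RefSeq. Python 3.11.15, numpy 2.4.6, pandas 2.3.3 and matplotlib 3.10.9 were used.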

Additional observations from a re-analysis of the deposited data

Results flagged for a closer look

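Each antisense RNA in the next sentences differed between the lines by a test of the difference itself, the OCI-Ly1 change with the TMD8 change subtracted (edgeR, adjusted p under 0.05, TMM scaling). At 500 nM the change was lower in OCI-Ly1 for DDX11-AS1 (-2.44), SLC26A4-AS1 (-1.86), AQP4-AS1 (-1.82), STAU2-AS1 (-1.79), GATM-AS1 (-1.48), FRMD6-AS1 (-1.33), ADORA2A-AS1 (-1.30), FOXD2-AS1 (-1.28), DICER1-AS1 (-1.20) and MFI2-AS1 (-1.11). Smaller differences in the same direction were those of IQCH-AS1 (-0.93), TIPARP-AS1 (-0.86), SLC25A5-AS1 (-0.85), UGDH-AS1 (-0.80), CDKN2B-AS1 (-0.70) and KDM4A-AS1 (-0.60). The change was higher in OCI-Ly1 for ZEB2-AS1 (1.56), C1QTNF9B-AS1 (1.49), KIAA1984-AS1 (0.84), C17orf76-AS1 (0.56) and WAC-AS1 (0.43).

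At 150 nM the difference was -1.47 for TIPARP-AS1, -1.35 for DDX11-AS1, -1.32 for DICER1-AS1, -1.08 for IQCH-AS1, -1.05 for MFI2-AS1 and -0.84 for ADORA2A-AS1. It was 0.74 for KIAA1984-AS1 and 0.33 for WAC-AS1. The fitted -9.72 for PCNA-AS1 rests on OCI-Ly1 counts of 219, 0 and 0 with DMSO and 0 in each 150 nM library, so its size is no bound, and the call was lost without the first DMSO library of OCI-Ly1. The 500 nM difference of SLC25A5-AS1 lost its call without any 1 of 6 libraries, that of SLC26A4-AS1 without any 1 of 5, and those of DICER1-AS1 and IQCH-AS1 without either of 2.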

How the results depend on the processing

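Of 78 results for single antisense RNAs, 70 were called, 52 of these kept their call without any 1 library, and 18 lost it in at least 1 such fit with none reversed. Among the alternatives, 72 of the 78 kept both their direction and their side of the threshold with DESeq2, where the other 6 lost their call. On log2(TPM + 1) 63 did, while 9 lost a call, 4 gained one and 2 reversed, and on its centred form 69 did, while 5 lost a call, 3 gained one and 1 reversed. The TMD8 change at 500 nM turned to -0.30 on both TPM scales and -0.048 when centred for C17orf76-AS1, and to -0.043 on both TPM scales for UGDH-AS1. Counts of antisense RNAs called in 1 direction, or in either, that moved over 1.5 times were as follows. In OCI-Ly1, lower calls at 150 nM were 1 with DESeq2 and 2 without a filter, those at 500 nM were 132 when centred, and calls between the doses were 21 higher and 106 lower, 127 in all, when centred. In TMD8 at 150 nM, higher calls were 27 with DESeq2, 22 on log2(TPM + 1) and 25 on log2(TPM + 0.1), and lower calls were 5 with DESeq2, 2 with library size, 18 on both TPM scales and 14 when centred. In TMD8 at 500 nM, higher calls were 31 on both TPM scales and lower calls 58 and 55. Between the TMD8 doses DESeq2 gave 9 higher and 1 lower, 10 calls in all, the TPM scales gave 3 higher and 15 or 16 lower, and centring gave 6 lower. For the difference between the lines at 150 nM, log2(TPM + 1) gave 5 higher and 11 lower, and log2(TPM + 0.1) gave 4 and 9, 13 calls in all. At 500 nM both TPM scales gave 44 higher, with 31 and 25 lower, and centring gave 164 lower of 175 calls. Between the lines with DMSO the TPM scales gave 206 and 204 higher and 17 lower, and centring gave 130 lower. The share of higher calls also moved by over 10 points in TMD8 at 150 nM with library size, to 61 higher and 2 lower, and in OCI-Ly1 at 500 nM when centred, to 29 higher and 132 lower. Requiring 10 counts in all 18 libraries left 186 antisense RNAs. With each library left out, higher and lower calls ran from 25 to 34 and 73 to 82 in OCI-Ly1 at 500 nM, from 63 to 77 and 9 to 14 in TMD8 at 500 nM, and from 26 to 44 and 3 to 8 in TMD8 at 150 nM. OCI-Ly1 at 150 nM gave 0 higher and 0 to 1 lower. Between the doses the counts ran from 59 to 73 in OCI-Ly1 and 10 to 24 in TMD8, for the line difference from 15 to 27 at 150 nM and 76 to 96 at 500 nM, and between the lines with DMSO from 127 to 143. Deviations from the group mean in same-numbered DMSO and 150 nM libraries had r = 0.12, 0.01 and 0.15 in OCI-Ly1. In TMD8 these were 0.13, -0.05 and 0.14. Libraries of different number had -0.17 to 0.04 in OCI-Ly1 and -0.19 to 0.10 in TMD8. Pairs with a 500 nM library had -0.05 to 0.04. Whether the numbers pair the libraries was not tested. With the replicate number as a block, 34 were higher and 84 lower in OCI-Ly1 at 500 nM, and 84 and 12 in TMD8. For the difference there were 8 and 88. Low counts limit the rarest: 72 antisense RNAs tested in OCI-Ly1 and 30 in TMD8 had under 1 CPM. The causes of these shifts were not tested.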

Other observations

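Genes that degrade or bind noncoding RNA were read beside the antisense RNAs, as lists chosen with earlier results known. Of 21 tested genes of the nuclear RNA exosome and its targeting complexes, 4 were higher and 9 lower at 500 nM in OCI-Ly1 (median log2 change -0.05), beside 27.7% and 25.9% of all genes. In TMD8, 2 were higher and 16 lower, beside 29.9% and 30.7% of all genes (median -0.54, against 0.04 over all genes). On log2(TPM + 1) the TMD8 counts were 0 higher and 19 lower. EXOSC2, a core subunit, changed by -0.18 in OCI-Ly1 and -0.75 in TMD8. PABPN1, a nuclear poly(A) binding protein gene, changed by 0.02 without a call in OCI-Ly1 and 0.35 in TMD8. ZCCHC8, of the nuclear exosome targeting complex, changed by 0.77 in OCI-Ly1 and 0.22 in TMD8. The change was higher in OCI-Ly1 than in TMD8 for 16 of the 21 and lower for 1, by the test of the difference, beside 28.2% and 18.1% of all genes. Among 12 genes of double-stranded RNA binding, editing and unwinding, OCI-Ly1 had 4 higher and 5 lower, while TMD8 had 1 and 9, beside the same shares of all genes. DHX9, a helicase gene, fell in both lines, by 0.73 in OCI-Ly1 and 0.77 in TMD8. ILF2 also fell in both, by 0.22 in OCI-Ly1 and 0.83 in TMD8. ADARB1, an RNA editing enzyme gene, rose by 1.05 in OCI-Ly1 and was called higher in TMD8 as well. The test of the difference between the lines called ILF2 but neither DHX9 nor ADARB1. Whether either list bears on the antisense RNAs was not tested.

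GAS6-AS1, opposite the gene of a receptor ligand and chosen after its values were seen, had 2, 0 and 1 counts with DMSO in TMD8, 4, 4 and 12 at 150 nM, and 20, 9 and 12 at 500 nM. Its DMSO libraries were at or below the floor of 3 counts, so no fold change is given. In OCI-Ly1 it had 67, 30 and 63 counts with DMSO and 123, 95 and 85 at 500 nM, with no overlap. SLC7A11-AS1, opposite the cystine transporter gene SLC7A11 and also chosen after its values were seen, changed by 0.96 (SE 0.21) in TMD8 and by 0.24 without a call in OCI-Ly1, while SLC7A11 rose by 1.43 and 1.59.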
